A study of Homo sapiens with 66 samples.

Results

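Of the 57820 genes in the count tables, 38 were followed here: genes of the endoplasmic reticulum (ER) for chaperones, disulfide formation, the unfolded protein response (UPR), ER-associated degradation, and the protein translocation channel. They were chosen by name, with earlier results of these data known, and all 38 passed the filter on low counts in both studies. The cells were THP-1, a human monocytic leukemia line, in clones that carried a Cas9 transgene and received guide RNAs (gRNAs) by nucleofection, an electroporation that reaches the nucleus. Study 1 used a STING-deficient clone with nontarget gRNA (CTRL) or gRNAs to GFP, ADAR, hnRNPC, or ADAR together with hnRNPC, harvested on days 3, 4, and 5, and CTRL cells given IFN-α for the last 24 h before harvest on day 4. Study 2 used a wild-type clone with other gRNAs (CTRL, ADAR, hnRNPC, and ADAR+hnRNPC) on day 4, from which total RNA and digitonin-soluble (cytosolic) RNA were sequenced, and digitonin-insoluble (nuclear) RNA of hnRNPC-targeted cells. Each of the 16 groups of study 1 had 3 libraries and each of the 9 groups of study 2 had 2, which the methods of the study describe as independent experiments. Every group within a study came from 1 clone, and a targeted culture is a mixture of cells with different edits. The comparisons asked which mRNAs change when hnRNPC, an RNA-binding protein that covers uridine-rich and Alu sequences in introns, and ADAR, the adenosine deaminase that edits double-stranded RNA, are targeted alone or together, and which mRNAs are present in the cytosolic fraction.

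Proteins that enter the secretory pathway pass through the SEC61 channel, are cleaved by signal peptidase, and fold with BiP (HSPA5), GRP94 (HSP90B1), the lectin chaperones calnexin and calreticulin, and protein disulfide isomerases. Misfolded chains are returned to the cytosol and degraded (ER-associated degradation). When misfolded proteins accumulate, the membrane sensors IRE1α (ERN1), PERK (EIF2AK3), and ATF6 start the UPR: IRE1α splices XBP1 mRNA, ATF6 is cleaved to a transcription factor, and PERK phosphorylates the initiation factor eIF2α, which lowers translation and favors ATF4 and CHOP. Monocytes rely on this machinery for secreted enzymes, cytokines, and surface receptors. Most of the mRNAs themselves are translated by ribosomes bound to the ER membrane, which digitonin at low concentration leaves behind when it opens the plasma membrane.

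ATF6 and XBP1 act through the ER stress response elements ERSE (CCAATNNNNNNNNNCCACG) and ERSE-II (ATTGG, any base, CCACG), and these letters are shown because both factors are among the members. Both strands of RefSeq promoter windows (GRCh38.p14, from 250 bases before to 50 bases after the start) were searched, and 35 of the 38 members had a window. ERSE was found in 7 of 35 members (20%) and in 27 of all 35116 windows (0.0769%), and ERSE-II was found in 3 of 35 (8.57%) and in 19 of all windows (0.0541%). Of 65 other ER genes with a window, 2 held ERSE (ERO1B and SERP1) and 0 held ERSE-II. The ERSE matches are given 5′ to 3′ on the strand that reads CCAAT first, with the fixed letters in capitals.
CALR (206 bases before the start), chr19:12938381-12938405, minus strand: cgaCCAATgatggtcgaCCACGcgt
CANX (132 bases before the start), chr5:179698775-179698799, plus strand: cggCCAATcttcacactCCACGaag
CRELD2 (61 bases before the start), chr22:49918551-49918575, minus strand: ggcCCAATccgagttcgCCACGaga
HSP90B1 (175 bases before the start), chr12:103930213-103930237, plus strand: tgaCCAATcggaaggagCCACGctt
HSP90B1 (70 bases before the start), chr12:103930318-103930342, minus strand: ccaCCAATcgcgccgcaCCACGcac
HSPA5 (47 bases before the start), chr9:125241388-125241412, minus strand: tcaCCAATcggcggcctCCACGacg
PDIA6 (67 bases before the start), chr2:10812850-10812874, minus strand: ggaCCAATgagccgcagCCACGgct
XBP1 (33 bases before the start), chr22:28800600-28800624, minus strand: tggCCAATcgcggagggCCACGacc
The ERSE-II matches are given on the strand that reads ATTGG first.
HERPUD1 (106 bases before the start), chr16:56932022-56932038, plus strand: ccgATTGGgCCACGttg
HYOU1 (68 bases before the start), chr11:119057271-119057287, plus strand: ctcATTGGaCCACGtcc
HYOU1 (174 bases before the start), chr11:119057377-119057393, plus strand: gggATTGGaCCACGtca
SDF2L1 (177 bases before the start), chr22:21642111-21642127, minus strand: ttgATTGGtCCACGctt
The sequences belong to BiP, GRP94 (2 matches), HYOU1 (2 matches), both lectin chaperones, PDIA6, CRELD2, SDF2L1, HERPUD1, and XBP1. A match is a description of letters and was not tested as a binding site.

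Gene counts per library ranged from 95107690 to 152829008 in study 1 and from 49666958 to 73873756 in study 2. The lowest count of a member in any library was 1108 in study 1 and 233 in study 2, and members held 0.805 to 1.59% and 0.296 to 1.60% of the counts of a library. Levels are given as CPM, counts scaled by the total of the library and by its TMM factor. That factor is a trimmed mean of ratios over all libraries of a study. HNRNPC was at 294 to 417 CPM in the 18 libraries of study 1 with hnRNPC gRNA and at 725 to 869 in the other 30. ADAR mRNA, which CRISPR edits need not lower, was at 344 to 1509 CPM with ADAR gRNA and 364 to 1373 without. Of the monocyte markers, CD14 (0.0991 to 3.93 CPM) and CD68 (0.00 to 0.292) were near 0, whereas SPI1, CSF1R, LYZ, ELANE, and CD33 were above 25 CPM in every library of study 1. Of other cell types, the markers CD3E, MS4A1, EPCAM, and KRT18 were near 0, and NKG7 was low. In CTRL cells on day 4 of study 1, levels per exon length were highest for CALR (1005 ± 52.7 CPM per kb, SD, n = 3), HSP90B1 (682 ± 116), CANX (460.0 ± 18.6), and P4HB (404 ± 20.8), and lowest for EIF2AK3 (4.81 ± 0.279) and ERN1 (1.52 ± 0.0935). CALR was thus above HSP90B1 in this order beyond their SDs. XBP1 (121 ± 1.32) and SEC61B (117 ± 13.0) were neighbors whose SDs overlapped, and HSPA5 was at 65.8 ± 14.3. Of the 38 genes, 14 overlap another coding gene in the annotation (CANX, PDIA3, PDIA6, OS9, SSR1, and SSR4 among them), and the strand setting of the counting was not given in the sources used here, so reads in such overlaps cannot be assigned.

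Targeting of hnRNPC in study 1 lowered part of the ER machinery, and the number of genes lowered grew from day 3 to day 5. On day 3, 1 member was higher and 7 lower. Among all genes, the shares called were 12.6% and 25.4%, where called means an edgeR adjusted p of at most 0.05. On day 4, 4 members were higher and 11 lower. For all genes, these shares were 23.4% and 28.0%. On day 5, 4 members were higher and 18 lower. All genes tested gave 29.6% and 35.2%. The median log2 fold change of the 38 was -0.21 against -0.03 for all genes. The share of members lowered was thus below that of all genes on day 3, close to it on day 4, and above it on day 5. Of the 18 members that fell on day 5, 8 were among the 10 genes of the translocon, the TRAP complex, and signal peptidase, and 3 each were among the 5 oxidoreductases and the 8 degradation genes. All 3 days used the CTRL libraries of that day, which every other gRNA group of the day shares. Without CTRL day 3 library 3, hnRNPC day 3 library 1, or hnRNPC day 3 library 2, the count of lower members on day 3 was 4, and the count of higher members on day 3 was 4, 2, and 0 without CTRL library 3, hnRNPC library 1, and hnRNPC library 3. On day 4, the count of higher members was 2 without CTRL library 1, CTRL library 2, or hnRNPC library 3, and that of lower members was 7 without CTRL library 3.

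The largest decrease was that of SSR1, which encodes the α subunit of TRAP (the translocon-associated protein complex, chr6:7268539-7347679 on the minus strand of GRCh37). On day 5, SSR1 was at 120.0, 140.0, and 134 CPM in the CTRL libraries and at 38.2, 43.2, and 44.6 CPM in the hnRNPC libraries, without overlap. The change on the log2 scale was -0.84 (SE 0.09, edgeR adjusted p = 4.9e-09) on day 3, -1.21 (SE 0.09, adjusted p = 2.88e-13) on day 4, and -1.65 (SE 0.10, adjusted p = 2.62e-17) on day 5. The other TRAP subunits differed in size: SSR3 was at 262, 297, and 275 CPM in CTRL and 166, 176, and 182 CPM in hnRNPC libraries of day 5. The log2 fold change of SSR3 was -0.67 (SE 0.08, edgeR adjusted p = 1.18e-08), whereas those of SSR2 and SSR4 were -0.34 and 0.06 (edgeR adjusted p = 3.77e-05 and 0.594). For SEC61A1, the pore subunit of the channel, the log2 fold change was -0.40 (SE 0.08, edgeR adjusted p = 6.49e-05) on day 3 and -0.35 (SE 0.08, adjusted p = 0.000109) on day 5. SSR4, an overlapping gene, had a day 3 log2 fold change of -0.24 (SE 0.09, edgeR adjusted p = 0.0264), with an adjusted p of 0.0565 without CTRL day 3 library 2, 0.126 without CTRL day 3 library 3, 0.231 without hnRNPC day 3 library 1, and 0.0964 without hnRNPC day 3 library 2.

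Calreticulin and enzymes of disulfide formation followed. CALR (chr19:13049392-13055303) was at 1626, 1808, and 1760.4 CPM in CTRL libraries on day 5 and at 866, 888, and 924 CPM in hnRNPC libraries, again without overlap. Its log2 fold change went from -0.24 on day 3 through -0.60 on day 4 to -0.96 (SE 0.09, edgeR adjusted p = 8.42e-12) on day 5. The day 3 value had an edgeR adjusted p of 0.0273, which was 0.105 without CTRL day 3 library 3, 0.166 without hnRNPC day 3 library 1, and 0.0755 without hnRNPC day 3 library 2, and the call was also lost with DESeq2 (adjusted p = 0.0615) and with GFP-targeted cells as control (0.154). ERO1A, the oxidase that recharges protein disulfide isomerases, was at 52.9, 56.4, and 59.6 CPM in CTRL and 31.3, 36.5, and 35.7 CPM in hnRNPC libraries of day 5. This gave a log2 fold change of -0.71 (SE 0.08, edgeR adjusted p = 2.71e-09). P4HB, a protein disulfide isomerase, was already lower on day 3, at -0.34 (SE 0.09, edgeR adjusted p = 0.00221), where CTRL libraries had 948, 981, and 1124 CPM and hnRNPC libraries 779, 753, and 874 CPM.

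EDEM1 and EDEM2 encode proteins that direct misfolded glycoproteins to degradation. EDEM1 on day 5 was at 556, 608, and 700.0 CPM in CTRL libraries and 296, 318, and 335 CPM in hnRNPC libraries, and EDEM2 was at 55.0, 59.2, and 57.6 and 38.2, 38.04, and 35.9 CPM. Neither gene had overlapping groups. Log2 fold changes on day 5 were -0.97 (SE 0.10, edgeR adjusted p = 1.49e-10) for EDEM1 and -0.61 (SE 0.07, adjusted p = 9.75e-10) for EDEM2. EDEM2 was already lower on day 3, at -0.36 (SE 0.07, edgeR adjusted p = 7.33e-05). In the opposite direction, the members that rose on day 5 were ERN1 (0.41 (SE 0.09, edgeR adjusted p = 0.000145)), the BiP cochaperones DNAJC3 (0.33 (SE 0.12, adjusted p = 0.0147)) and DNAJB11 (0.40 (SE 0.12, adjusted p = 0.00394)), and the ubiquitin ligase HRD1 (SYVN1, 0.33 (SE 0.10, adjusted p = 0.00533)). DNAJC3 was also higher on day 4, at 193, 227, and 245 CPM against 154, 167, and 185 CPM in CTRL libraries (log2 fold change 0.40 (SE 0.12, edgeR adjusted p = 0.00569)). SDF2L1, another partner of BiP, was lower on day 4 (-0.55 (SE 0.16, edgeR adjusted p = 0.00447)) with 19.7, 24.5, and 28.9 CPM against 32.5, 31.6, and 42.9 CPM, and its adjusted p was 0.0598 without CTRL day 4 library 3.

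**Figure D1:**
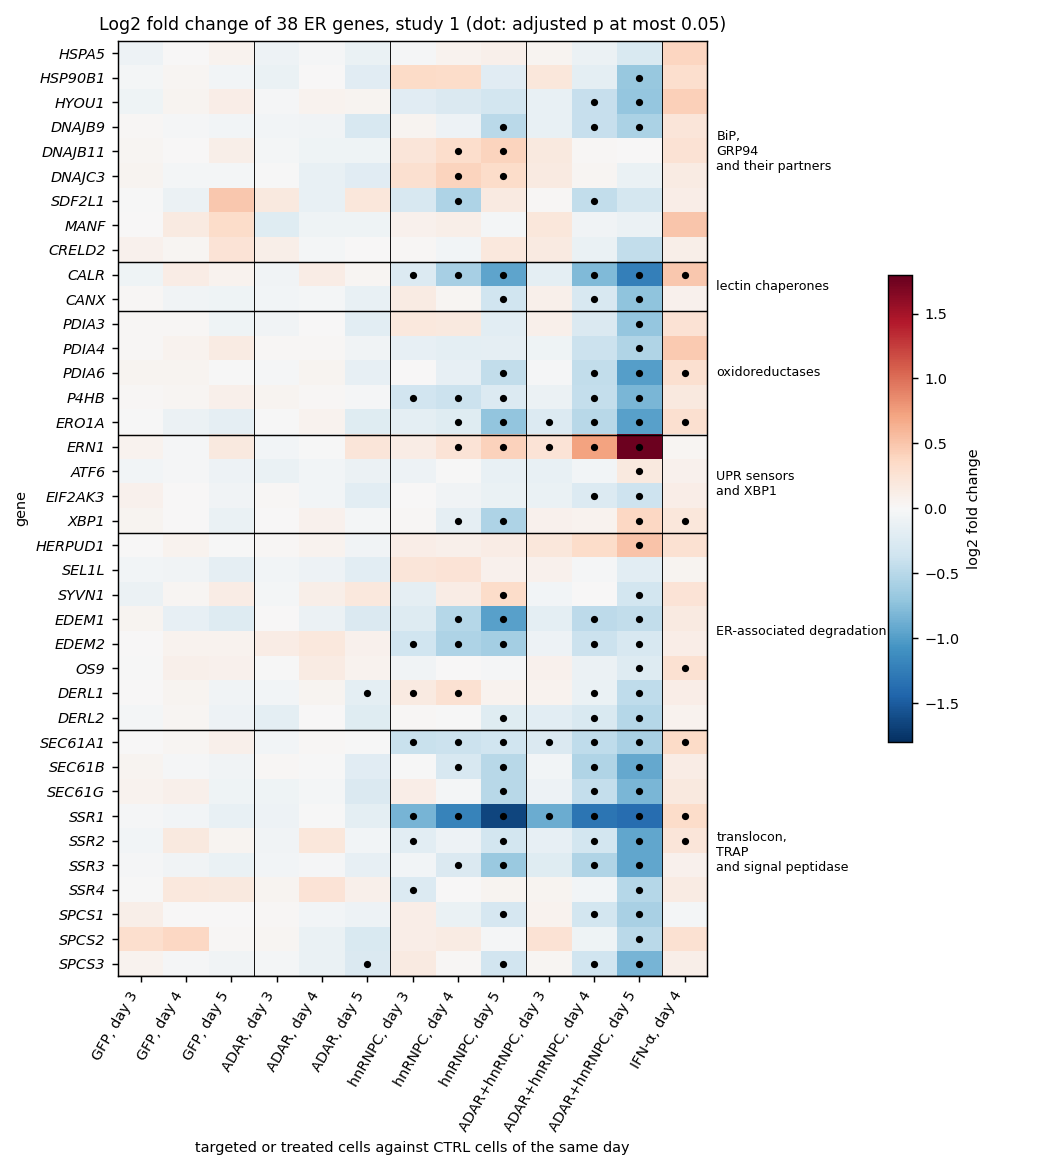
Heat map of log2 fold change of the 38 members (rows, by role) in each comparison of study 1 with CTRL cells of the same day (columns), with a dot where the edgeR adjusted p was at most 0.05. Blue and red are lower and higher than the control, and the ADAR+hnRNPC columns are mostly blue by day 5 (27 lower and 4 higher), with ERN1 in red.

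Targeting of ADAR together with hnRNPC lowered most of the ER machinery by day 5 and raised the UPR sensor ERN1. On day 3, 1 member was higher and 3 lower. Of all genes, 12.0% were called higher and 16.7% lower. On day 4, 1 member was higher and 21 lower. Among all genes, the shares called were 25.5% and 31.5%. On day 5, 4 members were higher and 27 lower. For all genes, these shares were 34.5% and 39.0%. The median log2 fold change of the members was -0.52 against -0.04 for all genes. When a change of at least 2-fold was also required, 1 member was higher and 2 were lower on day 5 (6.22% of all genes were lower by this rule). All 10 genes of the translocon, TRAP, and signal peptidase fell, as did all 5 oxidoreductases and both lectin chaperones. Of the 8 degradation genes, 6 fell and 1 rose, and of BiP, GRP94, and their 7 partners, 3 fell and 0 rose. In bulk RNA, fewer cells with a transcript and less of it per cell cannot be told apart. Leaving out CTRL day 5 library 1 changed the count of higher members on day 5 from 4 to 2. On day 3, the count of lower members was 1 without CTRL library 3, ADAR+hnRNPC library 1, or ADAR+hnRNPC library 2, and that of higher members was 0 without CTRL library 2, ADAR+hnRNPC library 1, or ADAR+hnRNPC library 3. On day 4, it was 2 without CTRL library 3.

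SSR1 again had the largest decrease, with 46.1, 48.5, and 57.5 CPM in the ADAR+hnRNPC libraries of day 5 against the CTRL values above. It changed on the log2 scale by -0.89 (SE 0.09, edgeR adjusted p = 1.65e-09) on day 3, -1.31 (SE 0.09, adjusted p = 2.17e-14) on day 4, and -1.37 (SE 0.09, adjusted p = 1.02e-15) on day 5. SSR2, which encodes the β subunit of TRAP, was at 315, 333, and 315 CPM in CTRL and 179.9, 165, and 161 CPM in ADAR+hnRNPC libraries (log2 fold change -0.93 (SE 0.07, edgeR adjusted p = 3.89e-15)). The 2 small subunits of the SEC61 channel fell as well, SEC61B by 0.92 and SEC61G by 0.83 on the log2 scale on day 5. SEC61B was among the largest changes on day 4, at 40.3, 44.5, and 51.2 CPM against 58.6, 66.2, and 73.3 CPM in CTRL libraries (-0.54 (SE 0.08, edgeR adjusted p = 3.57e-07)), and so was SSR3, at 159, 188, and 199 against 239, 265, and 291 CPM (-0.54 (SE 0.08, adjusted p = 1e-06)). No groups of these genes overlapped. The subunits of signal peptidase among the members, which are not the catalytic ones, fell by 0.58 (SPCS1), 0.48 (SPCS2), and 0.83 (SPCS3) on day 5. On day 3, SEC61A1 had a log2 fold change of -0.25 (SE 0.08, edgeR adjusted p = 0.00979), with an adjusted p of 0.099 without CTRL day 3 library 3, 0.0651 without ADAR+hnRNPC day 3 library 1, and 0.0508 without ADAR+hnRNPC day 3 library 2.

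Calreticulin was at 684, 735, and 803 CPM in the ADAR+hnRNPC libraries of day 5, below every CTRL library. The log2 fold change of CALR was -0.79 (SE 0.09, edgeR adjusted p = 1.22e-09) on day 4 and -1.22 (SE 0.09, adjusted p = 4.3e-15) on day 5, and that of calnexin (CANX) was -0.72 (SE 0.08, adjusted p = 1.16e-10) on day 5. PDIA6, a protein disulfide isomerase that also acts on IRE1α, was at 611, 678, and 659 CPM in CTRL libraries and 324, 322, and 337 CPM in ADAR+hnRNPC libraries. Its log2 fold change was -0.99 (SE 0.10, edgeR adjusted p = 1.66e-11). ERO1A was at 29.4, 27.7, and 29.0 CPM in the ADAR+hnRNPC libraries, with log2 fold changes of -0.50 (SE 0.08, edgeR adjusted p = 3.74e-06) on day 4 and -0.97 (SE 0.08, adjusted p = 5.01e-13) on day 5. On day 3, ERO1A had -0.24 (edgeR adjusted p = 0.0271), and this p was 0.141 without CTRL day 3 library 3, 0.0839 without ADAR+hnRNPC day 3 library 1, and 0.117 without ADAR+hnRNPC day 3 library 2. The remaining oxidoreductases PDIA3, PDIA4, and P4HB fell by 0.69, 0.54, and 0.82 on the log2 scale on day 5.

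Of the 3 sensors and XBP1, ERN1, ATF6, and XBP1 rose and EIF2AK3 fell with both gRNAs on day 5. ERN1, which encodes IRE1α (chr17:62116440-62208179), was at 10.1, 11.2, and 11.9 CPM in CTRL libraries of day 5, at 14.3, 15.1, and 14.7 in hnRNPC libraries, and at 33.9, 34.8, and 43.9 in ADAR+hnRNPC libraries. The 3 groups did not overlap. With both gRNAs, the log2 fold change of ERN1 was 0.25 (SE 0.09, edgeR adjusted p = 0.0329) on day 3, 0.72 (SE 0.09, adjusted p = 1.66e-08) on day 4, and 1.76 (SE 0.09, adjusted p = 2.61e-19) on day 5. The day 3 adjusted p was 0.0706 without CTRL day 3 library 2, 0.133 without CTRL day 3 library 3, 0.129 without ADAR+hnRNPC day 3 library 1, and 0.12 without ADAR+hnRNPC day 3 library 3, 0.107 without the filter on low counts, and 0.104 with GFP-targeted cells as control. In hnRNPC-targeted cells on day 4, ERN1 had 0.24 (SE 0.09, edgeR adjusted p = 0.0243), and the adjusted p was 0.0889 without CTRL day 4 library 1, 0.0639 without CTRL day 4 library 2, 0.192 without hnRNPC day 4 library 2, and 0.0615 without hnRNPC day 4 library 3 and 0.0793 without the filter on low counts.

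XBP1 (chr22:29190543-29196585) moved in opposite directions in the 2 groups. Its day 5 levels were 232, 237, and 289 CPM in CTRL, 179.6, 172, and 163 CPM in hnRNPC, and 324, 309, and 345 CPM in ADAR+hnRNPC libraries, without overlap between any of the groups. XBP1 had a log2 fold change of -0.56 (SE 0.06, edgeR adjusted p = 5.41e-10) with hnRNPC gRNA and 0.37 (SE 0.06, adjusted p = 1.61e-06) with both gRNAs. The counts cover both splice forms of XBP1 mRNA, so splicing by IRE1α was not measured. On day 4, XBP1 in hnRNPC-targeted cells had -0.16 (SE 0.06, edgeR adjusted p = 0.0294), with an adjusted p of 0.0681 without CTRL day 4 library 2, 0.0653 without CTRL day 4 library 3, 0.0989 without hnRNPC day 4 library 1, and 0.0642 without hnRNPC day 4 library 2, and 0.13 without the filter on low counts. ATF6 and EIF2AK3 had smaller values. ATF6 was at 128, 140.2, and 147 CPM in CTRL, 119.7, 128, and 130.04 in hnRNPC, and 158, 152, and 157 in ADAR+hnRNPC libraries of day 5, with the ADAR+hnRNPC libraries above CTRL and the hnRNPC libraries overlapping it. With both gRNAs it had a log2 fold change of 0.17 (SE 0.07, edgeR adjusted p = 0.0395), and the adjusted p was 0.203 without CTRL day 5 library 1, 0.0585 without CTRL day 5 library 2, 0.0922 without ADAR+hnRNPC day 5 library 1, and 0.082 without ADAR+hnRNPC day 5 library 3 and 0.0621 without the filter on low counts. In hnRNPC-targeted cells, ATF6 had -0.14 (SE 0.07, edgeR adjusted p = 0.106), which passed at an adjusted p of 0.0403 without CTRL day 5 library 1. EIF2AK3, which encodes PERK, was at 20.9, 22.2, and 22.2 CPM in CTRL, 18.01, 19.2, and 23.1 in hnRNPC, and 16.4, 17.1, and 17.1 in ADAR+hnRNPC libraries. Log2 fold changes were -0.11 (SE 0.10, edgeR adjusted p = 0.348) and -0.37 (SE 0.11, adjusted p = 0.0021) in these groups.

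BiP (HSPA5, chr9:127997132-128003661), the chaperone most often read as a sign of ER stress, did not pass in any comparison of study 1 by edgeR with the filter on low counts and groups as the only terms. On day 5 it was at 189.5, 209, and 211 CPM in CTRL, 187, 210.4, and 251 CPM in hnRNPC, and 151, 159, and 191 CPM in ADAR+hnRNPC libraries. The library numbered 3 was the highest in every one of these groups, and the groups overlapped. BiP had log2 fold changes of 0.09 (SE 0.19, edgeR adjusted p = 0.692) and -0.28 (SE 0.19, adjusted p = 0.175). The value for ADAR+hnRNPC-targeted cells passed without the filter on low counts (edgeR adjusted p = 0.000417). It also passed with a term for replicate number in the model, the replicate block (-0.29, edgeR adjusted p = 0.000677). With that block, BiP further passed against hnRNPC-targeted cells (-0.37, 5.6e-05) and in the day 5 interaction (-0.24, 0.0496). The same held with IFN-α (0.39, 0.000142) and by time in CTRL cells (-0.43, 3.06e-05). HERPUD1, which scaffolds the degradation complex, was the only degradation gene that rose on day 5 in ADAR+hnRNPC-targeted cells, by 0.51 (SE 0.17, edgeR adjusted p = 0.00936). GRP94 (HSP90B1) was at -0.69 (SE 0.15, edgeR adjusted p = 0.000131), HYOU1 at -0.70 (SE 0.18, adjusted p = 0.000817), and the cochaperone DNAJB11 at 0.00 (SE 0.12, adjusted p = 0.984).

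**Figure D2:**
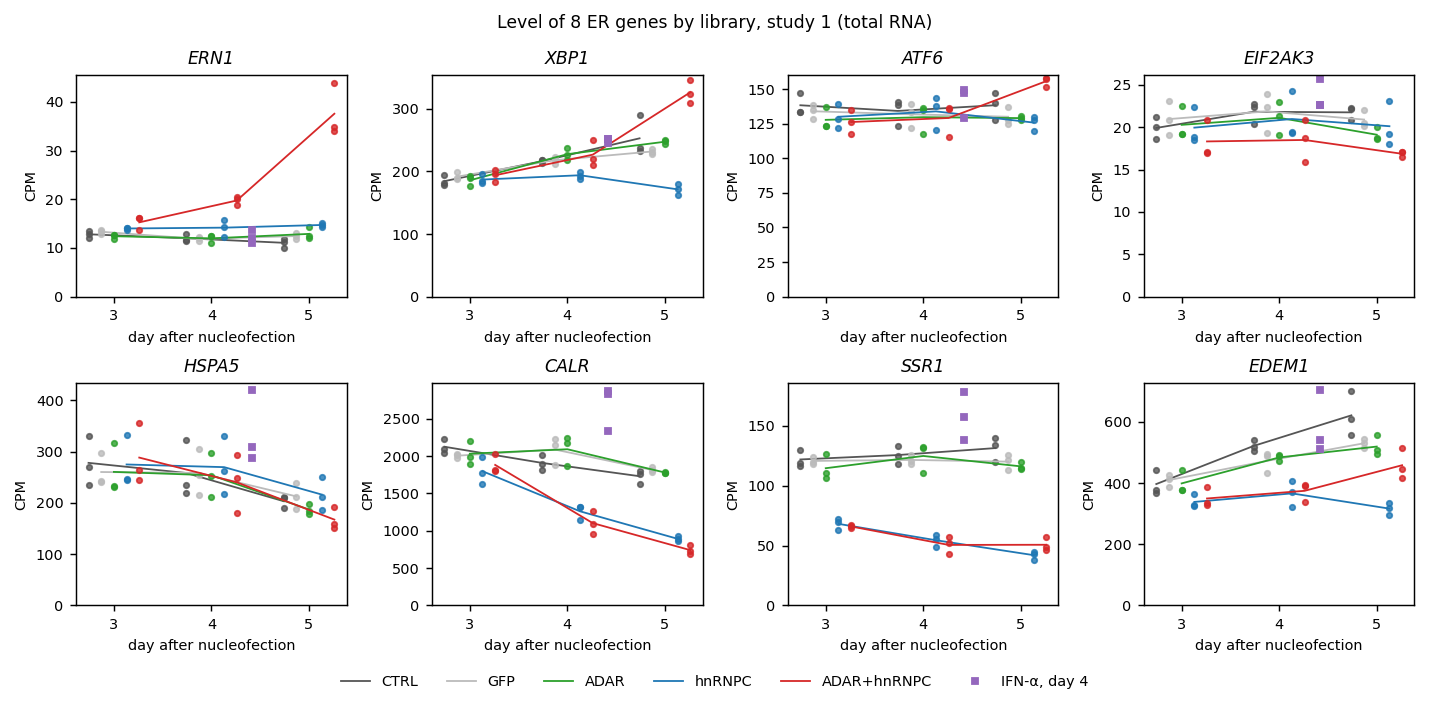
CPM of 8 members (panels) in each library of study 1 against day after nucleofection, with a point per library, lines through group means, and squares for IFN-α on day 4. ERN1 and XBP1 separate the ADAR+hnRNPC group upward by day 5, whereas CALR and SSR1 separate both hnRNPC groups downward, and HSPA5 overlaps between groups.

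In a direct comparison of ADAR+hnRNPC- with hnRNPC-targeted cells on day 5, ERN1, XBP1, and ATF6 rose, and EIF2AK3 and most other members fell. In it, 6 members were higher and 25 lower. All genes tested gave 29.3% and 32.8%. ERN1 and XBP1 rose by 1.35 (SE 0.09, edgeR adjusted p = 1.05e-15) and 0.93 (SE 0.06, adjusted p = 8.7e-16). SYVN1, which had risen with hnRNPC gRNA alone, was at 29.9, 26.9, and 27.1 CPM in hnRNPC and 17.9, 16.3, and 18.6 CPM in ADAR+hnRNPC libraries (-0.67 (SE 0.11, edgeR adjusted p = 9.83e-07)). SSR2 went from 266, 262, and 235 to 179.9, 165, and 161 CPM (-0.59 (SE 0.07, edgeR adjusted p = 1.01e-09)) and SSR4 from 188, 166, and 160.0 to 123, 112, and 110.1 CPM (-0.57 (SE 0.09, adjusted p = 6.28e-07)), without overlap in either gene. CRELD2, a secreted disulfide isomerase-like protein, was at 53.1, 55.4, and 70.7 CPM and 34.3, 37.0, and 43.7 CPM (-0.64 (SE 0.23, edgeR adjusted p = 0.0177)), also without overlap. The adjusted p of CRELD2 was 0.0943 without hnRNPC day 5 library 3 and 0.0673 without ADAR+hnRNPC day 5 library 1. ATF6 was 0.31 (SE 0.07, edgeR adjusted p = 0.000542), EIF2AK3 -0.25 (SE 0.11, adjusted p = 0.0345), and HSPA5 -0.37 (SE 0.19, adjusted p = 0.0841). For EIF2AK3 the adjusted p was 0.28 without hnRNPC day 5 library 3, 0.0871 without ADAR+hnRNPC day 5 library 1, 0.0577 without ADAR+hnRNPC day 5 library 2, and 0.0606 without ADAR+hnRNPC day 5 library 3, and HSPA5 passed without the filter on low counts (2.21e-06).

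The interaction, tested as the difference between the response to both gRNAs and the sum of the responses to each, passed for few members on day 4 and for more on day 5. On day 3, 0 and 0 members passed, as did 0% and 0% of all genes in these directions. By an unadjusted p under 0.05, by DESeq2, and by limma-voom the counts were likewise 0 in both directions. On day 4, 1 member was higher and 3 lower. Of all genes, 4.68% were called higher and 6.40% lower. On day 5, 6 members were higher and 9 lower. Among all genes, the shares called were 23.9% and 23.7%. With the replicate block, the count of lower members was 13 on day 4 and 20 on day 5, and the shares of all genes with it are not given here. With groups as the only terms, the members thus passed on day 5 about as often as all genes in the lower direction and in a smaller share in the higher. The day 5 interaction was 1.13 (SE 0.13, edgeR adjusted p = 2.9e-09) for ERN1, 0.96 (SE 0.09, adjusted p = 1.29e-11) for XBP1, 0.79 (SE 0.14, adjusted p = 1.73e-05) for EDEM1, -0.85 (SE 0.15, adjusted p = 1.14e-05) for SYVN1, -0.66 (SE 0.12, adjusted p = 3.86e-05) for SSR4, and -0.69 (SE 0.23, adjusted p = 0.0132) for SDF2L1. EDEM1 illustrates a positive value: it was at 494, 508, and 556 CPM with ADAR gRNA, at 296, 318, and 335 with hnRNPC gRNA, and at 416, 446, and 513 with both, which lies above the hnRNPC libraries. SDF2L1 had 23.3, 23.1, and 21.8 CPM in CTRL, 26.9, 25.5, and 26.1 with ADAR gRNA, 25.0, 24.1, and 27.2 with hnRNPC gRNA, and 16.5, 18.2, and 19.8 with both. On day 5 ATF6 had an interaction of 0.41 (SE 0.11, edgeR adjusted p = 0.00164), EIF2AK3 of -0.07 (SE 0.15, adjusted p = 0.739), and HSPA5 of -0.25 (SE 0.26, adjusted p = 0.46).

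On day 4, the interaction of ERN1 was 0.48 (SE 0.13, edgeR adjusted p = 0.0126), that of DERL1 -0.44 (SE 0.07, adjusted p = 8.88e-05), that of SSR2 -0.44 (SE 0.09, adjusted p = 0.00245), and that of OS9, a lectin that recognizes misfolded glycoproteins, -0.26 (SE 0.09, adjusted p = 0.0443). DERL1 was at 99.7, 106, and 107 CPM in CTRL, 103, 108, and 110.0 with ADAR gRNA, 123, 126, and 129 with hnRNPC gRNA, and 91.2, 96.4, and 98.9 with both. Its hnRNPC libraries were thus the highest of the 4 groups. For OS9 the adjusted p was 0.104 without CTRL day 4 library 1, 0.0996 without CTRL day 4 library 2, 0.0701 without hnRNPC day 4 library 2, 0.106 without hnRNPC day 4 library 3, 0.0715 without ADAR day 4 library 2, 0.123 without ADAR day 4 library 3, 0.12 without ADAR+hnRNPC day 4 library 1, and 0.0794 without ADAR+hnRNPC day 4 library 2, and 0.198 without the filter on low counts. The count of members with a negative interaction on day 4 was 8 without CTRL library 3, 5 without hnRNPC library 1, 12 without ADAR library 1, and 10 without ADAR+hnRNPC library 3.

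By edgeR with groups as the only terms, ADAR targeting alone changed few members in study 1. On day 3, 0 and 0 members passed in the higher and lower direction (0% and 0% of all genes), on day 4 0 and 0 (0.553% and 0.0910%), and on day 5 0 and 2 (4.45% and 4.78%). At an unadjusted p under 0.05 there were 1, 4, and 1 members higher on days 3, 4, and 5, and 0 lower on days 3 and 4. Beyond these counts, DESeq2 called 1 member higher on day 4 and limma-voom called 0 where edgeR called 0. On day 5, DESeq2 called 6 members lower where edgeR called 2, and edgeR with the replicate block called 13. The shares of all genes under these alternatives are not given here, so a general gain in calls cannot be told from one of the members. The members that fell on day 5 were the signal peptidase subunit SPCS3, from 204, 218, and 213 CPM in CTRL to 174, 187, and 168 CPM in ADAR libraries (-0.26 (SE 0.08, edgeR adjusted p = 0.0289)), and DERL1, from 106, 114, and 119.9 to 100.3, 101, and 99.9 CPM (-0.17 (SE 0.05, adjusted p = 0.0299)). The adjusted p of SPCS3 was 0.13 without CTRL day 5 library 2, 0.0734 without CTRL day 5 library 3, 0.0909 without ADAR day 5 library 1, and 0.142 without ADAR day 5 library 3, and 0.18 with GFP-targeted cells as control. That of DERL1 was 0.104 without CTRL day 5 library 2, 0.155 without CTRL day 5 library 3, 0.0825 without ADAR day 5 library 1, 0.0506 without ADAR day 5 library 2, and 0.108 without ADAR day 5 library 3, 0.291 without the filter on low counts, and 0.304 with GFP-targeted cells as control. The sensors and BiP were at 0.22 (ERN1), -0.03 (XBP1), -0.10 (ATF6), -0.19 (EIF2AK3), and -0.12 (HSPA5) in log2 fold change on day 5.

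GFP gRNA, the control for a nuclease cut elsewhere, gave 0 and 0 members on day 3 (0.0303% of all genes higher and 0% lower), 0 and 0 on day 4 (0.0227% and 0%), and 0 and 0 on day 5 (5.36% and 1.94%). At an unadjusted p under 0.05, 0, 3, and 1 members were higher and 0, 0, and 2 were lower on days 3, 4, and 5. DESeq2 called 1 member higher on day 5 and limma-voom 0 on each day.

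IFN-α for 24 h raised 8 of the 38 members by small amounts. Of the 9 genes of BiP, GRP94, and their partners, 0 were called, but all 9 log2 fold changes were above 0 (median 0.25, highest 0.49). In CTRL cells on day 4, 8 members were higher and 0 lower. For all genes, these shares were 11.1% and 7.19%. Of the 38 log2 fold changes, 37 were above 0, and the median was 0.19 against 0.02 for all genes. At an unadjusted p under 0.05, and by DESeq2 and limma-voom, 0 members were lower. CALR, which is also part of the peptide loading complex of MHC class I, went from 1819, 1894, and 2017 CPM to 2335, 2829.7, and 2867 CPM (0.49 (SE 0.09, edgeR adjusted p = 8.43e-05)), without overlap. SEC61A1 went from 341, 321, and 349 to 379, 426, and 479 CPM (0.35 (SE 0.08, edgeR adjusted p = 0.00106)), also without overlap, and OS9 from 232, 228, and 244 to 266, 282, and 299.9 CPM (0.27 (SE 0.06, adjusted p = 0.00142)). SSR1 had 138, 158, and 179 CPM with IFN-α against 118, 125, and 133 CPM without (0.33 (SE 0.09, edgeR adjusted p = 0.0101)), and its adjusted p was 0.0593 without CTRL day 4 library 1 and 0.136 without IFN-α day 4 library 3. ERO1A had 57.4, 57.8, and 72.1 against 47.7, 52.9, and 52.3 CPM (0.29 (SE 0.08, edgeR adjusted p = 0.0111)), with an adjusted p of 0.0712 without CTRL day 4 library 1 and 0.215 without IFN-α day 4 library 3. PDIA6 had 719, 803, and 879.6 against 585, 640.3, and 738 CPM (0.29 (SE 0.10, edgeR adjusted p = 0.0311)), with an adjusted p of 0.184 without CTRL day 4 library 1, 0.0871 without CTRL day 4 library 2, 0.0686 without IFN-α day 4 library 2, and 0.207 without IFN-α day 4 library 3. Each of these 3 calls was thus lost when 1 of several libraries was left out. XBP1 rose by 0.21 (SE 0.06, edgeR adjusted p = 0.0158), with an adjusted p of 0.0537 without CTRL day 4 library 1 and 0.0673 without the filter on low counts. ERN1, ATF6, and EIF2AK3 were at 0.03, 0.08, and 0.12, and HSPA5 at 0.39 (SE 0.19, edgeR adjusted p = 0.146), which passed without the filter (2.77e-06). The count of 8 was 4 without CTRL day 4 library 1 or without IFN-α library 3, 16 without the filter on low counts, and 19 with the replicate block. For these settings the shares of all genes are not given here, so the counts cannot be set against them.

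Time after nucleofection also moved members in CTRL cells. From day 3 to day 5, 4 members were higher and 4 lower. All genes tested gave 9.95% and 15.7%, so the shares of members were close to or below these. EDEM1 rose from 368, 378, and 444 CPM to 556, 608, and 700.0 CPM (0.65 (SE 0.10, edgeR adjusted p = 1.12e-05)) and XBP1 from 181, 178, and 194 to 232, 237, and 289 CPM (0.45 (SE 0.06, adjusted p = 9.75e-07)), both without overlap. The members that fell included SDF2L1, from 30.0, 32.4, and 35.8 to 23.3, 23.1, and 21.8 CPM (-0.53 (SE 0.16, edgeR adjusted p = 0.0154), with an adjusted p of 0.0662 without CTRL day 3 library 3 and 0.0623 without CTRL day 5 library 3), and SYVN1, from 29.9, 27.4, and 26.9 to 23.5, 20.1, and 22.9 CPM (-0.34 (SE 0.10, adjusted p = 0.0149), with an adjusted p of 0.0759 without CTRL day 3 library 1 and 0.0951 without CTRL day 5 library 2). CALR went from 2102, 2049, and 2227 to 1626, 1808, and 1760.4 CPM (-0.30 (SE 0.09, edgeR adjusted p = 0.0118), with an adjusted p of 0.0525 without CTRL day 3 library 3 and 0.069 without CTRL day 5 library 1). SEC61G went from 44.4, 44.4, and 45.3 to 49.99, 54.2, and 55.1 CPM (0.25 (SE 0.09, edgeR adjusted p = 0.0405), with an adjusted p of 0.0983 without CTRL day 3 library 1, 0.0955 without CTRL day 3 library 2, 0.0696 without CTRL day 3 library 3, 0.108 without CTRL day 5 library 2, and 0.137 without CTRL day 5 library 3). HSPA5 was at -0.45 (SE 0.19, edgeR adjusted p = 0.0714) and passed without the filter on low counts (2.5e-08), and ERN1 at -0.21, ATF6 at 0.00, and EIF2AK3 at 0.13 did not pass. The count of 4 higher members was 2 without CTRL day 3 library 1 or 2 or CTRL day 5 library 2 or 3 and 7 without CTRL day 5 library 1, and the count of 4 lower members was 1 without CTRL day 3 library 3 and 2 without CTRL day 5 library 1 or 2. In this comparison members with an ERSE or ERSE-II match had a median of -0.25 (10 genes) and those without 0.00 (25 genes), whereas for ADAR+hnRNPC targeting on day 5 the medians were -0.56 and -0.52 and for IFN-α 0.28 and 0.17.

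Other genes of ER folding, degradation, and translocation fell as well. Of 74 tested ones, 9 were higher and 50 lower with both gRNAs on day 5 (median log2 fold change -0.42), 10 and 37 with hnRNPC gRNA (-0.20), and 22 and 0 with IFN-α (0.14). Of 25 chaperones of the cytosol, 4 were higher and 18 lower with both gRNAs on day 5 (median -0.32), 6 and 6 with hnRNPC gRNA, and 11 and 0 with IFN-α. The shares of all genes higher and lower were 34.5% and 39.0% with both gRNAs and 29.6% and 35.2% with hnRNPC gRNA on day 5. They were 11.1% and 7.19% with IFN-α, 25.5% and 31.5% with both gRNAs on day 4, and 4.45% and 4.78% with ADAR gRNA on day 5. The list of 10 genes of the ATF4 and CHOP arm, which PERK and other eIF2α kinases share, went the other way: 8 were higher and 1 lower with both gRNAs on day 5 (median 1.95), and 9 and 0 on day 4 (1.58). ATF3, TRIB3, and PPP1R15A, which encodes the eIF2α phosphatase subunit GADD34, had log2 fold changes of 5.35, 3.20, and 2.72 on day 5, and VLDLR was lower (-0.74). With hnRNPC gRNA alone the arm had 5 higher and 2 lower genes (median 0.42), and with ADAR gRNA alone 0 and 0 (0.36).

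**Figure D3:**
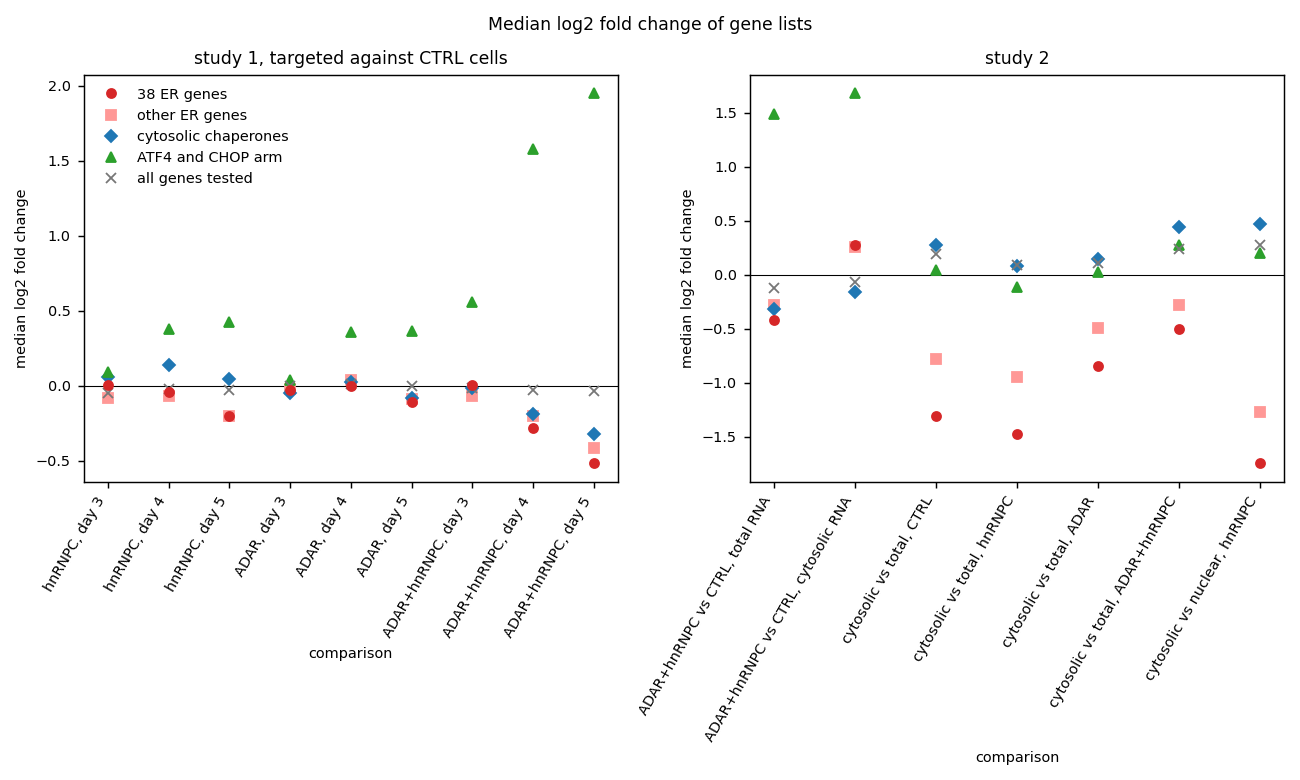
Median log2 fold change (vertical axis) of the 38 members, other ER genes, cytosolic chaperones, the ATF4 and CHOP arm, and all genes tested (markers) in comparisons of study 1 (left) and study 2 (right). The ATF4 and CHOP arm rises to 1.95 with both gRNAs on day 5, where the members are at -0.52.

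Reads on introns of the members, counted by the authors in study 1, were lower for most tested introns with both gRNAs on day 5, and 1 intron each of ERN1 and ATF6 was higher. The 3 tested introns of XBP1 were lower with hnRNPC gRNA on day 5, and EIF2AK3 had none that passed the filter. Of 395 introns of members, 147 in 30 genes passed the filter, and 18 of these overlap another coding gene. With hnRNPC gRNA, 6 introns were higher and 3 lower on day 3 (8.87% and 2.16% of all introns tested), 6 and 14 on day 4 (11.6% and 4.67%), and 3 and 51 on day 5 (13.9% and 16.0%). With both gRNAs, the counts were 2 and 1 on day 3 (5.04% and 1.66%), 3 and 44 on day 4 (10.5% and 9.23%), and 4 and 104 on day 5 (14.3% and 36.3%). Introns of a gene are not independent. The 51 lower introns lay in 11 of the 30 genes, among them EDEM1 (10), CANX (9), PDIA6 (9), and CALR (8). The 44 and 104 lower introns with both gRNAs lay in 14 and 20 genes. The median log2 fold change over the 147 introns on day 5 was -0.69 with both gRNAs and -0.28 with hnRNPC gRNA, against -0.28 and -0.06 over all introns. The count of 44 on day 4 was 23 without ADAR+hnRNPC library 2, and the count of 51 on day 5 was 33 without hnRNPC library 1. Of the 6 higher introns with hnRNPC gRNA, 3 were left without library 2 of that group on day 3, and 1 to 3 on day 4 without CTRL library 2 or 3 or hnRNPC library 1 or 3. The 3 lower introns of day 3 were 1 without any single CTRL library and 0 without hnRNPC library 1 or 2. With both gRNAs on day 3, the 2 higher introns were 1 without any single CTRL library or ADAR+hnRNPC library 1 or 3, and the 1 lower intron was 0 without CTRL library 1 or ADAR+hnRNPC library 1 or 3.

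An intron of ATF6 of 48983 bases (chr1:161833103-161882085) was at 14.2, 10.9, and 10.5 CPM in CTRL libraries of day 5, at 25.4, 28.6, and 26.1 with hnRNPC gRNA, and at 31.0, 30.9, and 32.2 with both. Its log2 fold change was 1.17 (SE 0.12, edgeR adjusted p = 1.37e-09) and 1.40 (SE 0.12, edgeR adjusted p = 7.58e-12), while the exon counts of ATF6 had -0.14 and 0.17. It was higher from day 3 on (0.99 (SE 0.12, edgeR adjusted p = 1.09e-07) with hnRNPC gRNA). An intron of ERN1 (chr17:62175602-62207335) was at 1.73, 1.81, and 1.54 CPM in CTRL, 3.495, 3.95, and 3.95 with hnRNPC gRNA, and 7.02, 7.53, and 7.70 with both, with log2 fold changes of 1.17 (SE 0.18, edgeR adjusted p = 3.98e-06) and 2.13 (SE 0.19, edgeR adjusted p = 4.91e-12). An intron of HERPUD1 (chr16:56966304-56969146) rose from 2.23, 1.59, and 2.39 to 5.22, 5.99, and 5.37 CPM with both gRNAs (1.42 (SE 0.21, edgeR adjusted p = 7.15e-07)). Among the introns that fell, that of CALR at chr19:13050446-13050866 was at 13.7, 12.1, and 13.3 CPM in CTRL, 5.49, 5.71, and 6.15 with hnRNPC gRNA, and 4.72, 4.87, and 5.74 with both (-1.17 (SE 0.10, edgeR adjusted p = 9.97e-12) and -1.35 (SE 0.10, edgeR adjusted p = 1.14e-13)). The intron of SSR2 at chr1:155979442-155981600 fell from 2.46, 1.73, and 1.97 to 0.899, 0.559, and 0.902 CPM with both (-1.38 (SE 0.26, edgeR adjusted p = 3.85e-05)). The HSP90B1 intron with the largest decrease (chr12:104337098-104337515, 13.1, 9.94, and 11.9 CPM in CTRL and 3.40, 3.31, and 3.56 with both, -1.76 (SE 0.20, edgeR adjusted p = 1.68e-09)) overlaps the coding gene UQCC6, so its reads cannot be assigned to HSP90B1.

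In study 2, library 2 of CTRL total RNA stood apart from library 1. It had 446 CPM of HSPA5 against 188, 2723 CPM of the nuclear RNA MALAT1 against 1148, 337 CPM of NEAT1 against 170, and 156 CPM of the mitochondrial transcript MT-ND1 against 37.0. HNRNPC in study 2 had a median of 452 CPM in total RNA of all libraries with hnRNPC gRNA and 882 without it. In cytosolic RNA these medians were 611 and 1023 CPM, and in study 1 they were 337 and 797. With hnRNPC gRNA in total RNA, 0 members were higher and 3 lower. Of all genes, 2.08% were called higher and 3.03% lower. The 3 that fell were SSR1, from 111 and 115 to 63.0 and 66.9 CPM (-0.80 (SE 0.12, edgeR adjusted p = 0.0017)), ERO1A, from 49.8 and 61.7 to 35.3 and 35.0 CPM (-0.67 (SE 0.11, adjusted p = 0.00358), with an adjusted p of 0.0572 without hnRNPC total library 2), and EDEM1, from 600.2 and 632 to 431 and 345 CPM (-0.67 (SE 0.13, adjusted p = 0.00886), with an adjusted p of 0.0514 without CTRL total library 2 and 0.139 without hnRNPC total library 2). Of those higher, 1 member passed an unadjusted p under 0.05 and 0 passed by DESeq2 and limma-voom, and 1 was called without CTRL total library 1. The count of 3 lower members was 1 without hnRNPC total library 2.

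With both gRNAs in total RNA, 2 members were higher and 23 lower. Among all genes, the shares called were 12.4% and 22.2%. ERN1 rose from 12.8 and 13.9 CPM to 33.5 and 30.0 CPM (1.25 (SE 0.13, edgeR adjusted p = 5.08e-06)) and XBP1 from 172 and 144 to 239.8 and 189 CPM (0.44 (SE 0.14, adjusted p = 0.021), with an adjusted p of 0.0538 without CTRL total library 2 and 0.251 without ADAR+hnRNPC total library 1). SSR1 fell to 67.3 and 66.8 CPM (-0.75 (SE 0.12, edgeR adjusted p = 0.000206)). PDIA6 went from 527 and 376 to 293 and 259 CPM (-0.71 (SE 0.16, edgeR adjusted p = 0.00298)), SDF2L1 from 20.9 and 17.7 to 12.0 and 12.1 CPM (-0.68 (SE 0.15, adjusted p = 0.00294)), and P4HB from 1007 and 930.0 to 601 and 618 CPM (-0.67 (SE 0.12, adjusted p = 0.000859)). None of these groups overlapped. CALR went from 1277 and 912 to 720.5 and 635 CPM (-0.69 (SE 0.17, edgeR adjusted p = 0.00557), with an adjusted p of 0.0798 without CTRL total library 1). The count of 23 was 10 without CTRL total library 1 and 13 without ADAR+hnRNPC total library 1, and the count of 2 higher members was 1 without the latter. ATF6 and EIF2AK3 were at 0.05 (SE 0.12, edgeR adjusted p = 0.785) and -0.31 (SE 0.18, adjusted p = 0.191).

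ADAR gRNA alone, which by the same model changed few members in the other clone, gave 2 higher and 3 lower members in total RNA, where 9.01% and 3.88% of all genes were called. ERN1 was at 21.5 and 19.9 CPM and XBP1 at 234 and 234 CPM, with log2 fold changes of 0.63 (SE 0.13, edgeR adjusted p = 0.00409) and 0.56 (SE 0.14, adjusted p = 0.014) and adjusted p of 0.0576 without ADAR total library 1 (ERN1) and 0.0889 without CTRL total library 2, 0.0847 without ADAR total library 1, and 0.07 without ADAR total library 2 (XBP1). EDEM1 was at 447 and 397 CPM (-0.55 (SE 0.13, edgeR adjusted p = 0.0111), with an adjusted p of 0.0993 without CTRL total library 2 and 0.11 without ADAR total library 2) and ERO1A at 38.4 and 39.0 CPM (-0.53 (SE 0.11, adjusted p = 0.00502), with an adjusted p of 0.0945 without CTRL total library 2 and 0.0608 without ADAR total library 1). The value of HSPA5 depended on the CTRL library that stood apart. HSPA5 was at 188 and 446 CPM in CTRL, 186 and 166 with hnRNPC gRNA, 149 and 186 with ADAR gRNA, and 272 and 342 with both. Its log2 fold change with ADAR gRNA was -0.92 (SE 0.27, edgeR adjusted p = 0.0308), and it was -0.13 without CTRL total library 2. The adjusted p was 0.804 without CTRL total library 2, 0.213 without ADAR total library 1, and 0.0766 without ADAR total library 2, and 0.0548 with limma-voom. With both gRNAs it was -0.05 (SE 0.26, edgeR adjusted p = 0.906), which turned to 0.77 without CTRL total library 2 and was -0.54 without CTRL total library 1 (adjusted p = 0.0434 without CTRL total library 1 and 0.00836 without CTRL total library 2). With hnRNPC gRNA it was -0.85 (SE 0.26, edgeR adjusted p = 0.0691), with an adjusted p of 0.000215 without CTRL total library 1 and 6.78e-08 without the filter on low counts. The count of higher members was 4 without CTRL total library 1, 1 without CTRL total library 2 or ADAR total library 2, and 0 without ADAR total library 1, and that of lower members was 0 without CTRL total library 2 and 1 without either ADAR library.

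Members were mostly depleted from the digitonin-soluble fraction. Over the mean of the 4 gRNA groups, cytosolic against total RNA gave 3 higher and 34 lower members, while 49.3% and 27.2% of all genes were called higher and lower. The median log2 ratio was -0.997 for the members and 0.17 for all genes, and 19 members were at least 2-fold lower (8.29% of all genes). These are relative values, and amounts per cell were not measured. Each library was scaled by its total and a TMM factor over all 3 fractions, which takes most genes as equal between libraries. The mitochondrial transcript MT-CO1 was at 17.1 to 37.6 CPM in cytosolic and 1521 to 2764 CPM in total RNA, and MALAT1, a nuclear RNA, at 377 to 940 and 824 to 2723 CPM.

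The strongest depletion was that of PDIA3, a disulfide isomerase that works with both lectin chaperones. It was at 529 and 455 (CTRL), 474 and 502 (hnRNPC), 455 and 509 (ADAR), 339.7 and 329 (ADAR+hnRNPC) CPM in total RNA and at 49.4 and 59.7 (CTRL), 47.4 and 54.3 (hnRNPC), 139 and 146 (ADAR), 133 and 139.7 (ADAR+hnRNPC) CPM in cytosolic RNA. No cytosolic library reached the lowest total library. Its log2 ratio over the mean of 4 groups was -2.37 (SE 0.07, edgeR adjusted p = 7.6e-14). BiP (HSPA5) was at 188 and 446 (CTRL), 186 and 166 (hnRNPC), 149 and 186 (ADAR), 272 and 342 (ADAR+hnRNPC) CPM in total RNA and at 41.5 and 51.1 (CTRL), 51.5 and 39.7 (hnRNPC), 57.1 and 61.3 (ADAR), 46.4 and 51.1 (ADAR+hnRNPC) CPM in cytosolic RNA. Its mean log2 ratio was -2.22 (SE 0.14, edgeR adjusted p = 3.82e-10), and every cytosolic library lay below every total library. The same held for PDIA4, HSP90B1, HYOU1, and OS9, with mean log2 ratios of -2.21 (SE 0.09, edgeR adjusted p = 2.09e-12), -2.01 (SE 0.08, adjusted p = 1.38e-12), -1.91 (SE 0.08, adjusted p = 2.87e-12), and -2.05 (SE 0.09, adjusted p = 4.21e-12). OS9 was at 226 and 153 (CTRL), 202 and 200.3 (hnRNPC), 208 and 200.1 (ADAR), 147 and 119.6 (ADAR+hnRNPC) CPM in total RNA and at 23.1 and 24.6 (CTRL), 19.1 and 25.0 (hnRNPC), 77.6 and 78.4 (ADAR), 85.5 and 86.9 (ADAR+hnRNPC) CPM in cytosolic RNA, so that its cytosolic ADAR+hnRNPC libraries lay closest to total RNA. HSP90B1 was at 1308 and 1158 (CTRL), 1217 and 1331 (hnRNPC), 1129.9 and 1249.9 (ADAR), 934 and 931 (ADAR+hnRNPC) CPM in total RNA and at 181 and 217 (CTRL), 176 and 221 (hnRNPC), 402 and 449 (ADAR), 375 and 417 (ADAR+hnRNPC) CPM in cytosolic RNA.

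Among the sensors, XBP1 was at 172 and 144 (CTRL), 142 and 165 (hnRNPC), 234 and 234 (ADAR), 239.8 and 189 (ADAR+hnRNPC) CPM in total RNA and at 49.0 and 50.4 (CTRL), 41.0 and 45.1 (hnRNPC), 177 and 167 (ADAR), 222 and 206 (ADAR+hnRNPC) CPM in cytosolic RNA, with a mean log2 ratio of -0.99 (SE 0.07, edgeR adjusted p = 1.71e-09). Its cytosolic libraries overlapped the total libraries in ADAR+hnRNPC-targeted cells and lay below them in the other groups. ERN1 was at -0.63 (SE 0.06, edgeR adjusted p = 1.51e-07), ATF6 at -0.43 (SE 0.06, adjusted p = 5.58e-06), and EIF2AK3 at -1.26 (SE 0.09, adjusted p = 2.91e-09). By role, all 9 of BiP, GRP94, and their partners, both lectin chaperones, all 4 of the sensors and XBP1, 4 of 5 oxidoreductases, 7 of 8 degradation genes, and 8 of 10 translocon and signal peptidase genes were depleted. The exceptions were 4 genes. SEC61B and SEC61G, the small tail-anchored subunits of the channel, were at 0.43 (SE 0.07, edgeR adjusted p = 4.2e-05) and 0.43 (SE 0.07, adjusted p = 6.63e-05), both enriched, as was ERO1A (0.22 (SE 0.05, adjusted p = 0.00155)), while EDEM1 was at 0.07 (SE 0.06, adjusted p = 0.307). SEC61B was at 56.1 and 41.6 (CTRL), 51.0 and 59.5 (hnRNPC), 50.6 and 56.5 (ADAR), 34.1 and 31.5 (ADAR+hnRNPC) CPM in total RNA and at 79.0 and 64.8 (CTRL), 58.0 and 69.1 (hnRNPC), 63.8 and 62.0 (ADAR), 53.3 and 56.2 (ADAR+hnRNPC) CPM in cytosolic RNA. Its cytosolic libraries were above the total libraries in each group except hnRNPC, where they overlapped, and those of SEC61G were above in all 4 groups.

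**Figure D4:**
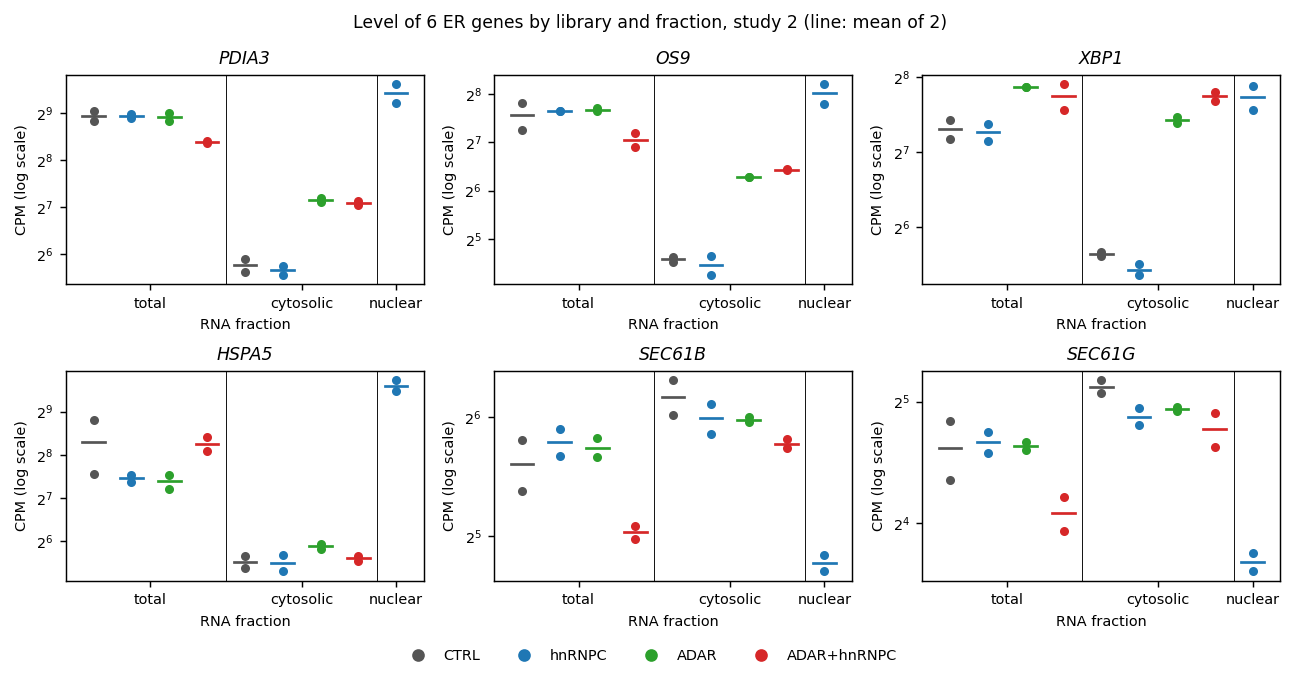
CPM on a log axis of 6 members (panels) in each library of study 2, by gRNA group and fraction, with a point per library and a line at the mean of 2. PDIA3, OS9, and HSPA5 are lower in cytosolic than in total RNA in every group and XBP1 in all but ADAR+hnRNPC, where it overlaps, whereas SEC61G is higher in every group and SEC61B in all but hnRNPC, where it overlaps.

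Within single groups of study 2, the median ratio was lowest in hnRNPC-targeted and CTRL cells. In CTRL cells 2 members were higher and 34 lower (31.5% and 19.9% of all genes, median of members -1.31). With hnRNPC gRNA the counts were 0 and 34 (24.3% and 21.7%, median -1.48), with ADAR gRNA 1 and 27 (23.8% and 19.1%, -0.84), and with both 2 and 23 (37.8% and 17.1%, -0.51). The log2 ratio of PDIA3 was -3.17 (SE 0.15, edgeR adjusted p = 1.65e-10) in CTRL cells, -3.26 (SE 0.15, adjusted p = 1.47e-10) with hnRNPC gRNA, -1.76 (SE 0.14, adjusted p = 1.42e-07) with ADAR gRNA, and -1.30 (SE 0.14, adjusted p = 3.66e-06) with both. That of OS9 was -2.99, -3.19, -1.39, and -0.63, and that of CALR -2.41, -2.61, -1.42, and -0.90. BiP did not follow this order, with -2.78, -1.95, -1.50, and -2.65. PDIA4 was at -2.68, -2.97, -1.86, and -1.35 and PDIA6 at -2.39 with hnRNPC gRNA. With both gRNAs, SYVN1 was among the most depleted (-1.54 (SE 0.16, edgeR adjusted p = 2.02e-06)). XBP1 in ADAR-targeted cells was at -0.44 (SE 0.14, edgeR adjusted p = 0.0156), with an adjusted p of 0.0677 without ADAR total library 1, 0.0613 without ADAR total library 2, 0.0514 without ADAR cytosolic library 1, and 0.0994 without ADAR cytosolic library 2. ERN1, ATF6, and EIF2AK3 were at -0.89, -0.70, and -1.52 in CTRL cells and at -0.64, 0.00, and -0.88 with both gRNAs. In CTRL cells the count of 2 higher members was 1 without CTRL total library 2 and 0 without CTRL cytosolic library 1, and in hnRNPC-targeted cells the count of 0 was 1 without hnRNPC total library 1, 1 at an unadjusted p under 0.05, and 0 by DESeq2 and limma-voom.

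**Figure D5:**
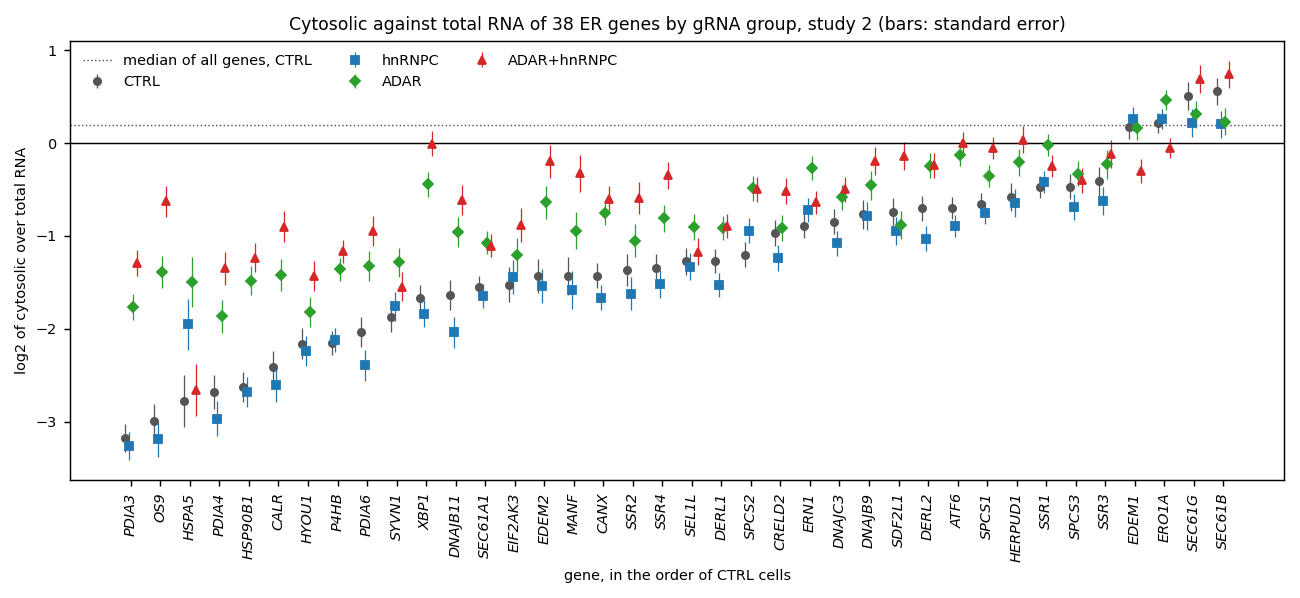
Log2 ratio of cytosolic to total RNA for each of the 38 members (ordered by the CTRL value) in 4 gRNA groups of study 2, with points for estimates and bars for SE. Ratios in ADAR and ADAR+hnRNPC cells lie above those of CTRL for most of the depleted members, with medians of -0.84 and -0.51 against -1.31.

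Nuclear RNA, sequenced from hnRNPC-targeted cells, gave the widest contrast. Cytosolic against nuclear RNA had 2 higher and 34 lower members (45.2% and 25.8% of all genes), with 27 members (15.0% of all genes) at least 2-fold lower. HSPA5 was at 844 and 712 CPM in nuclear and 51.5 and 39.7 CPM in cytosolic libraries (-4.09 (SE 0.30, edgeR adjusted p = 5.66e-09)). PDIA3 was at 782 and 592 and 47.4 and 54.3 CPM (-3.76 (SE 0.15, edgeR adjusted p = 1.29e-11)) and OS9 at 295 and 222 and 19.1 and 25.0 CPM (-3.55 (SE 0.19, adjusted p = 2.09e-10)). The digitonin-insoluble fraction holds the ER and mitochondria with the nuclei, so nuclear and ER-bound mRNA cannot be told apart. PDIA4, HSP90B1, and CALR were at -3.31, -3.25, and -3.00. The sensors were less extreme, with -2.30 for XBP1, -1.33 for ERN1, -1.20 for ATF6, and -1.87 for EIF2AK3.

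In cytosolic RNA, more members were higher than lower after ADAR targeting. Against CTRL cytosolic RNA, ADAR gRNA gave 20 higher members and 1 lower (16.1% and 6.60% of all genes), and both gRNAs gave 16 and 5 (20.1% and 20.5%). XBP1 was highest in change, at 1.79 (SE 0.14, edgeR adjusted p = 2.74e-07) with ADAR gRNA and 2.10 (SE 0.14, adjusted p = 3.17e-08) with both, from the cytosolic levels given above. OS9 was at 1.71 (SE 0.18, edgeR adjusted p = 3.73e-06) and 1.86 (SE 0.18, adjusted p = 8.45e-07), and PDIA3 at 1.38 (SE 0.14, adjusted p = 2.92e-06) and 1.32 (SE 0.14, adjusted p = 2.39e-06). ERN1 went from 6.62 and 7.78 CPM in CTRL to 18.2 and 16.1 with ADAR gRNA and 21.6 and 19.3 with both (1.25 (SE 0.13, edgeR adjusted p = 3.65e-06) and 1.51 (SE 0.13, adjusted p = 2.75e-07)), without overlap with CTRL. CALR went from 210.1 and 202 to 473 and 463 CPM with ADAR gRNA (1.18 (SE 0.17, edgeR adjusted p = 9.36e-05)), and EDEM2 from 13.3 and 13.3 to 26.8 and 26.6 CPM with both (1.00 (SE 0.18, adjusted p = 0.000412)). HSP90B1 had 1.10 and 0.99. HSPA5 was at 0.36 (SE 0.27, edgeR adjusted p = 0.367) and 0.07 (SE 0.27, adjusted p = 0.84), ATF6 at 0.74 and 0.75, and EIF2AK3 at 0.26 and 0.34. The single lower member with ADAR gRNA was not called without ADAR cytosolic library 2, and the count of 5 with both was 3 without CTRL cytosolic library 1 or ADAR+hnRNPC cytosolic library 1.

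With hnRNPC gRNA alone, cytosolic RNA had 0 higher and 3 lower members (0.725% and 1.88% of all genes), and 0 were higher at an unadjusted p under 0.05, by DESeq2, and by limma-voom. The lower members were SSR1, from 87.6 and 75.0 to 51.8 and 45.6 CPM (-0.74 (SE 0.12, edgeR adjusted p = 0.00261), with an adjusted p of 0.0762 without CTRL cytosolic library 1), ERO1A, from 65.3 and 63.9 to 42.8 and 41.2 CPM (-0.62 (SE 0.11, adjusted p = 0.00512), with an adjusted p of 0.0814 without CTRL cytosolic library 1), and EDEM1, from 717 and 668 to 491 and 438 CPM (-0.58 (SE 0.13, adjusted p = 0.0228), with an adjusted p of 0.232 without CTRL cytosolic library 1, 0.0627 without CTRL cytosolic library 2, 0.0732 without hnRNPC cytosolic library 1, and 0.128 without hnRNPC cytosolic library 2). The count of 3 was therefore 0 without CTRL cytosolic library 1.

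The difference between groups in the cytosolic to total ratio was tested itself. For ADAR+hnRNPC-targeted less CTRL cells, 15 members had a higher ratio and 0 a lower one (4.27% and 0.286% of all genes). The difference in log2 ratio was 2.36 (SE 0.25, edgeR adjusted p = 3.53e-05) for OS9, 1.88 (SE 0.20, adjusted p = 3.53e-05) for PDIA3, 1.67 (SE 0.19, adjusted p = 0.0001) for XBP1, 1.51 (SE 0.24, adjusted p = 0.00102) for CALR, 1.39 (SE 0.22, adjusted p = 0.000954) for HSP90B1, and 1.33 (SE 0.25, adjusted p = 0.00344) for PDIA4. By role, 4 of 5 oxidoreductases, both lectin chaperones, and 3 of 9 of BiP, GRP94, and partners had a higher ratio, against 2 each of the 4 sensor genes, the 8 degradation genes, and the 10 translocon and signal peptidase genes. Beside XBP1, the other sensor gene that passed was ATF6 (0.70 (SE 0.17, edgeR adjusted p = 0.0201), with an adjusted p of 0.0598 without CTRL total library 1, 0.0961 without CTRL cytosolic library 1, 0.0507 without CTRL cytosolic library 2, 0.0601 without ADAR+hnRNPC cytosolic library 1, and 0.09 without ADAR+hnRNPC cytosolic library 2), while ERN1, EIF2AK3, and HSPA5 were at 0.26, 0.64, and 0.12. At an unadjusted p under 0.05, 1 member had a lower ratio, and 0 did by DESeq2 and limma-voom, and 1 was called lower without CTRL total library 2.

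For ADAR-targeted less CTRL cells, a comparison added after the cytosolic values had been seen, 6 members had a higher ratio and 0 a lower one (1.64% and 0.0659% of all genes). They were OS9 (1.60 (SE 0.24, edgeR adjusted p = 0.00295)), PDIA3 (1.41 (SE 0.19, adjusted p = 0.00173)), XBP1 (1.23 (SE 0.19, adjusted p = 0.00393)), HSP90B1 (1.15 (SE 0.22, adjusted p = 0.012)), CALR (0.99 (SE 0.24, adjusted p = 0.0432)), and P4HB (0.79 (SE 0.18, adjusted p = 0.0296)). The calls of OS9, PDIA3, and XBP1 held without each library. The adjusted p of HSP90B1 was 0.0765 without ADAR total library 1, 0.0856 without CTRL cytosolic library 1, and 0.0628 without ADAR cytosolic library 2. That of CALR was 0.0746 to 0.189 without CTRL total library 1, either ADAR total library, or any of the CTRL and ADAR cytosolic libraries, and that of P4HB was 0.0791 to 0.152 without either ADAR total library or any of those cytosolic libraries. HSPA5 was at 1.28 (SE 0.38, edgeR adjusted p = 0.119), with an adjusted p of 0.000925 without CTRL total library 1 and 1.87e-08 without the filter on low counts. ERN1 (0.62) and ATF6 (0.57) did not pass with edgeR and passed with DESeq2 (0.0241 and 0.00644). The count of 6 was 10 without CTRL total library 2, 3 without ADAR total library 1, CTRL cytosolic library 1, or ADAR cytosolic library 2, 14 with DESeq2, and 13 without the filter on low counts. Shares of all genes for these settings are not given here. No member passed the lower direction at an unadjusted p under 0.05, by DESeq2, or by limma-voom. For hnRNPC-targeted less CTRL cells, 0 and 0 members passed (0% and 0% of all genes), with 1 higher and 0 lower at an unadjusted p under 0.05, and 0 by DESeq2 and limma-voom. HSPA5 (0.83) was called without CTRL total library 1 (0.0113) and without the filter on low counts (0.00525).

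Other transcripts of the fractions gave these values beside the members. Of the 74 other ER genes, 14 were higher and 49 lower in cytosolic than in total RNA (median log2 ratio -0.59), and of 25 cytosolic chaperones 15 were higher and 1 lower (0.25). The shares of all genes were 49.3% and 27.2% here, and 4.27% and 0.286% in the difference that follows. In the difference between ADAR+hnRNPC-targeted and CTRL cells, 26 of the other ER genes had a higher ratio and 0 a lower one, 0 and 0 of the cytosolic chaperones, and 6 and 0 of 9 monocyte markers (median 0.98), most of which encode secreted or membrane proteins. MALAT1, a nuclear RNA, had log2 ratios of -1.27 in CTRL and -2.33 with both gRNAs, a difference of -1.07 (edgeR adjusted p = 0.188). That difference was -1.11 for NEAT1, -0.18 for MT-ND1, and 0.25 for MT-CO1. For ADAR-targeted less CTRL cells, it was 0.55 for MALAT1, 0.26 for NEAT1, 1.54 for MT-ND1, and 0.86 for MT-CO1. These marker differences did not pass. In total RNA, ADAR gRNA gave log2 fold changes of -1.15 for MALAT1, -1.27 for NEAT1, and -1.50 for MT-ND1, each called lower. The part of these fraction values in the members' result was not tested.

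The ATF4 and CHOP arm in cytosolic RNA had 7 higher and 0 lower genes with ADAR gRNA (median log2 fold change 1.18), and 8 and 0 with both (1.68). The shares of all genes were 16.1% and 6.60% with ADAR gRNA and 20.1% and 20.5% with both. The arm's ratio of cytosolic to total RNA differed from CTRL in 0 genes in either direction for ADAR+hnRNPC-targeted cells.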

How the data were processed

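RNA depleted of ribosomal RNA was sequenced with a stranded kit in 48 libraries of study 1 and 18 of study 2. The authors aligned reads to GRCh37 with STAR 2.5.4a and counted uniquely mapped reads on genes and introns with featureCounts, and they deposited raw counts per library without normalization. Sample labels gave the groups. Tables of editing sites and edited regions were not used.

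Counts were tested in R 4.3.3 with edgeR 4.0.16 (glmQLFit, glmQLFTest), TMM, 1 coefficient per group over all libraries of a study, and Benjamini-Hochberg adjustment over all 13193 (study 1) or 13650 (study 2) genes with an average log2 CPM of at least 0.5, or over 21798 introns of at least 1. A gene was called at an adjusted p of at most 0.05. Alternatives were DESeq2 1.42.0, limma 3.58.1 (voom), no filter, a 2-fold rule, a replicate block, GFP-targeted cells as control, intron totals, and leaving out each library. Between libraries of a group, chi-square per gene was at least 12.1 in 57 pairs, so none was a copy. Scripts were tested on simulated data. P-values measure the spread between libraries.

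The members and lists were chosen with earlier results of these data known. Values per library were given for HSPA5, XBP1, ERN1, ATF6, EIF2AK3, and the 6 called members with the largest absolute change in a comparison. Other lists were 78 further ER genes, 25 cytosolic chaperones, 10 genes of the ATF4 and CHOP arm, and markers of fractions and cell types. Gene positions came from an annotation lifted to GRCh37, and promoter sequences from RefSeq (GRCh38.p14).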

Additional observations from a re-analysis of the deposited data

Results flagged for a closer look

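The interaction between both gRNAs was flagged because the response to hnRNPC gRNA differed, by its own test, between cells with and without ADAR gRNA. On day 4, 4 members passed (edgeR, adjusted p of at most 0.05), with a log2 interaction of 0.48 for ERN1, -0.44 for DERL1, -0.44 for SSR2, and -0.26 for OS9. On day 5, 15 members passed, and those named were ERN1 (1.13), XBP1 (0.96), EDEM1 (0.79), SYVN1 (-0.85), SDF2L1 (-0.69), and SSR4 (-0.66). The shares of all genes higher and lower were 4.68% and 6.40% on day 4 and 23.9% and 23.7% on day 5. With the replicate block, the count of lower members was 13 on day 4 and 20 on day 5, and the shares of all genes with it are not given here. With groups as the only terms, the counts of members were thus near or below the shares of all genes. Of the named genes, ERN1 passed on both days with a positive sign.

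The ratio of cytosolic to total RNA was flagged because it differed, by its own test, between gRNA groups. For ADAR+hnRNPC-targeted less CTRL cells, 15 members passed, with log2 differences of 2.36 for OS9, 1.88 for PDIA3, 1.67 for XBP1, 1.51 for CALR, 1.39 for HSP90B1, and 1.33 for PDIA4. For ADAR-targeted less CTRL cells, 6 members passed, with 1.60 for OS9, 1.41 for PDIA3, 1.23 for XBP1, 1.15 for HSP90B1, 0.99 for CALR, and 0.79 for P4HB. This comparison was added after the cytosolic values had been seen. The calls of HSP90B1, CALR, and P4HB were lost when 1 of several libraries was left out. The shares of all genes with a higher and lower ratio were 4.27% and 0.286% in the first comparison and 1.64% and 0.0659% in the second. The members of the second comparison other than P4HB were also among the 6 named in the first, and both comparisons share the CTRL libraries. All groups had 2 or 3 libraries, so no single library was tested as an outlier.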

How the results depend on the processing

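With a change of at least 2-fold also required, counts of members were 0 higher and 0 lower for hnRNPC day 3, ADAR+hnRNPC day 3, CTRL by time, interaction day 4, and ADAR total, 0 higher and 1 lower for hnRNPC day 4, ADAR+hnRNPC day 4, and hnRNPC day 5, 0 lower for ADAR day 5, hnRNPC total, and hnRNPC cytosolic, 1 higher and 2 lower for ADAR+hnRNPC day 5, 0 higher for IFN-α day 4, 1 higher and 0 lower for ADAR+hnRNPC against hnRNPC day 5, interaction day 5, and ADAR+hnRNPC total, 7 higher and 0 lower for ADAR cytosolic, 5 higher and 0 lower for ADAR+hnRNPC cytosolic, 0 higher and 19 lower for cytosolic to total (mean), 0 higher and 22 lower for cytosolic to total CTRL, 0 higher and 13 lower for cytosolic to total ADAR, 0 higher and 9 lower for cytosolic to total ADAR+hnRNPC. With DESeq2 and its size factors, they were 8 higher for hnRNPC day 3, 1 higher for ADAR day 4 and GFP day 5, 6 lower for ADAR day 5, 7 higher for CTRL by time, 8 lower for interaction day 4, 5 lower for ADAR total, 14 higher for difference ADAR. Without the filter on low counts (a count of at least 1 in any library kept a gene), they were 4 higher for hnRNPC day 3, 2 higher for ADAR+hnRNPC day 4, 1 higher for GFP day 4 and difference hnRNPC, 2 higher and 1 lower for GFP day 5, 16 higher for IFN-α day 4, 10 lower for CTRL by time, 7 lower for interaction day 4, 14 lower for interaction day 5, 13 higher for difference ADAR. With GFP-targeted cells as control, they were 2 higher for hnRNPC day 3, 0 higher for ADAR+hnRNPC day 3, 0 lower for ADAR day 5. With library sizes from intron totals, they were 6 lower for introns of hnRNPC day 3, 10 higher for introns of ADAR+hnRNPC day 5. With limma-voom, all 66 counts of members stayed within 1.5 times of edgeR. Apart from some by the 2-fold rule, shares of all genes under the alternatives are not given here, so these counts describe the members only. With 1 library left out in turn, counts that moved by over 1.5 times were 0 to 4 higher and 4 to 9 lower for hnRNPC day 3, 0 to 1 higher and 1 to 4 lower for ADAR+hnRNPC day 3 and hnRNPC total, 2 to 6 higher and 7 to 12 lower for hnRNPC day 4, 1 to 2 higher for ADAR+hnRNPC day 4, 0 to 3 lower for ADAR day 5, 2 to 4 higher for ADAR+hnRNPC day 5, 4 to 11 higher for IFN-α day 4, 2 to 7 higher and 1 to 4 lower for CTRL by time, 2 to 12 lower for interaction day 4, 0 to 4 higher and 0 to 4 lower for ADAR total, 1 to 2 higher and 10 to 23 lower for ADAR+hnRNPC total, 0 to 2 lower for hnRNPC cytosolic, 0 to 1 lower for ADAR cytosolic and difference ADAR+hnRNPC, 3 to 4 lower for ADAR+hnRNPC cytosolic, 0 to 2 higher for cytosolic to total CTRL, 0 to 1 higher for cytosolic to total hnRNPC and difference hnRNPC, 3 to 10 higher for difference ADAR, 3 to 6 higher and 0 to 3 lower for introns of hnRNPC day 3, 1 to 2 higher and 0 to 1 lower for introns of ADAR+hnRNPC day 3, 1 to 7 higher for introns of hnRNPC day 4, 23 to 40 lower for introns of ADAR+hnRNPC day 4, 33 to 49 lower for introns of hnRNPC day 5. Of the named genes, only HSPA5 changed sign, with both gRNAs in total RNA, from -0.05 to 0.77 without CTRL total library 2, and it was -0.54 without CTRL total library 1.

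The replicate numbers of the groups were checked for pairing by the correlation of deviations from the group means. In study 1, same-numbered libraries had correlations from -0.378 to 0.744 (median 0.185), with 233 of 360 over 0.1, against 134 of 720 with different numbers, and in study 2 from -0.381 to 0.469 (median 0.171), with 44 of 72 over 0.1. The main model held no replicate term, because the rule used asked that every same-numbered pair pass 0.1. That rule cannot exclude that same-numbered libraries share an experiment. In study 1, the median with different numbers was -0.0918, and 40 of 48 libraries correlated best, on average, with libraries of their own number. In study 2, 16 of 18 did. With the replicate block, counts moved by over 1.5 times were 8 higher and 11 lower for hnRNPC day 3, 5 higher and 7 lower for ADAR+hnRNPC day 3, 7 higher for hnRNPC day 4, 2 higher for ADAR+hnRNPC day 4, 13 lower for ADAR day 5 and interaction day 4, 2 higher and 1 lower for GFP day 5, 19 higher for IFN-α day 4, 7 higher and 13 lower for CTRL by time, 20 lower for interaction day 5, 17 higher and 5 lower for introns of hnRNPC day 3, 2 lower for introns of ADAR+hnRNPC day 3, 11 higher for introns of hnRNPC day 4. Other counts with the replicate block stayed within 1.5 times, and of the named genes 7 values then passed that had not: HSPA5 with both gRNAs on day 5 (edgeR adjusted p = 0.000677), against hnRNPC-targeted cells (5.6e-05), in the day 5 interaction (0.0496), with IFN-α (0.000142), and by time (3.06e-05), ERN1 by time (0.0446), and ATF6 with hnRNPC gRNA on day 5 (0.0227). Counting noise was not the limit, as the lowest count of a member was 233, whereas 2 or 3 libraries a group limit what the tests can show, and 14 of the members share positions with another coding gene.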

Other observations

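In study 1, 7 of the 38 genes had their highest value in the library numbered 3 in 16 of 16 groups. Number 3 was also highest in 15 of 16 groups for DNAJB9, DNAJC3, PDIA3, and SEL1L, and it was the most frequent for most other members. For SYVN1, number 1 was highest in 12 groups. The share among all genes was not counted, so the pattern cannot be called particular to the members. The 7 genes were HSPA5, HSP90B1, HYOU1, DNAJB11, CRELD2, PDIA4, and HERPUD1, of which 5 are chaperones, cochaperones, or partners of BiP, and the others are a disulfide isomerase and a scaffold of the degradation complex. Of the 7, HSPA5, HSP90B1, and CRELD2 have ERSE letters and HYOU1 and HERPUD1 have ERSE-II letters in the promoter window. Of the other members with such letters, number 3 was highest in 14 groups for PDIA6, 12 for CALR, CANX, and SDF2L1, and 9 for XBP1. The labels give no further detail of what the numbers share, and this pattern was seen after the values were known.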
